A study of Mus musculus with 12 samples.

Results

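Glycolysis turns glucose into pyruvate and lactate, and cells short of oxygen make more of its enzymes together with a set of other proteins that adapt them to hypoxia. The genes described here are 34 glycolysis and hypoxia response genes, chosen by symbol from the enzymes of the pathway and genes known to respond to hypoxia. All 34 were found among the 38986 genes listed in each library, and all 34 were among the 18405 genes expressed highly enough to be tested. They comprise 10 genes of glucose uptake and upper glycolysis, 5 of lower glycolysis, 3 that set the fate of pyruvate and lactate, 4 oxygen sensors and subunits of the hypoxia-inducible factor (HIF), and 12 other genes known to be induced by hypoxia.

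The HIF alpha subunits are made in all conditions but are hydroxylated by oxygen-dependent prolyl hydroxylases and then degraded through the VHL ubiquitin ligase. When oxygen falls, the alpha subunit persists, pairs with ARNT and binds hypoxia response elements in target genes, which include most glycolytic enzymes, the glucose carrier, the angiogenic factor Vegfa and the hydroxylases themselves. The control of Hif1a is thus mostly on the protein, which transcript counts do not show, and the oxygen of the tumors was not measured.

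The transcripts were counted in teratomas, tumors of mixed differentiated tissue, that grew from R1 mouse embryonic stem (ES) cells. The cells carried a lentiviral pEZ-LV235 vector with a CAG promoter that was empty (ET, the control) or encoded WT Dnmt3L, K238R or K412R, the last pair being mutants in which a lysine that can be acetylated is replaced by arginine. All groups, the control included, therefore share the vector, puromycin selection as infected populations and growth in hosts of the same strain, sex and age. For each group, 5000000 cells were injected under the skin of 8-week-old male NOD-PrkdcEM1 mice, and the teratomas were collected at day 21, with 3 libraries per group and 12 in all. These immunodeficient hosts still supply vessels, blood and macrophages, and since host and graft are both mouse, their transcripts cannot be told apart. The labels do not say which mouse each library came from, so the p-values measure only the spread between these libraries.

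The libraries held 16957677 to 18546100 counts each, of which 1 RNA, Gm26917, took 7.47% to 13.9%. Dnmt3l, the gene on the constructs, stood at 2.22, 0.649 and 7.62 (ET), 165, 203 and 204 (WT), 1.89, 1.11 and 0.543 (K238R-labelled) and 38.9, 38.3 and 25.99 (K412R) in counts scaled to the library total (CPM), with the 3 libraries of a group here and throughout in the order of their replicate numbers. The K238R-labelled libraries thus held no more of it than ET and are named by their label. Over the 500 most variable genes, ET replicate 2 and WT replicate 1 stood apart from their groups: each was the other's nearest library (root mean square distance 0.857 on the log2 scale), against mean distances of 1.50 and 1.49 to their own group. None of the K238R-labelled libraries had its nearest library in its own group either. Their replicate 3 was the farthest of all libraries from its own group (mean distance 1.61), with ET replicate 3 nearest (1.25). Summed CPM of neuron markers was 3239 to 5836, of astrocyte markers 954 to 2307, of keratinocyte markers 68.3 to 441 and of macrophage markers 224 to 425, so that neural, epidermal and macrophage transcripts were found in each library, whereas skeletal muscle markers ran from 40.9 in replicate 3 of the K238R-labelled libraries to 3938 in WT replicate 2.

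The promoters of many members share a short sequence, the core of the hypoxia response element. The choice of the genes did not read sequence, but it took genes known to respond to hypoxia. A larger share among them than among all promoters is therefore not independent of the choice. In RefSeq sequence of the GRCm38.p6 build, an older build than the GRCm39 named for the counts, 33 of the 34 genes had at least 1 promoter, and the 250 bases before each start were searched on both strands for ACGTG and GCGTG, the forms of the HIF core. ACGTG was found in 23 of the 48 promoters of the members (47.9%) and in 16.6% of all 32851 promoters. GCGTG was found in 52.1% against 28.2%, and 1 form or the other in 79.2% against 38.6%. Both forms hold CG, so CG-rich promoters often contain them, and the promoters compared were not matched for CG content. The promoters below stand for each class from glucose uptake to mitophagy, with ACGTG on either strand in capitals. Where CACGTG is in capitals both strands hold the core, and that hexamer is also the E-box bound by MYC and its antagonists. A match is a stretch of letters and not a measured binding site.
Slc2a1, chr4:119108625-119108744, plus strand: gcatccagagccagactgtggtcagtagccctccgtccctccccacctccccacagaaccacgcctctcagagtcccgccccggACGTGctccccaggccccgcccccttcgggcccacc
Ldha, chr7:46845644-46845803, plus strand: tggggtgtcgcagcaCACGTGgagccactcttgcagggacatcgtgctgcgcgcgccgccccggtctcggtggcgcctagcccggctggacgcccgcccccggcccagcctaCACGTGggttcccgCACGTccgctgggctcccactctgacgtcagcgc
Slc16a3, chr11:120948947-120949066, plus strand: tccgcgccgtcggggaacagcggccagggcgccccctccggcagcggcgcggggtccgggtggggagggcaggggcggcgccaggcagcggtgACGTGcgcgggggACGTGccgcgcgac
Egln1, chr8:124949255-124949374, minus strand: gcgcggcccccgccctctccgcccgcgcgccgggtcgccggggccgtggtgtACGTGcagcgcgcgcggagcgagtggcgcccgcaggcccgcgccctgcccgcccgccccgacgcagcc
Bnip3, chr7:138909507-138909626, minus strand: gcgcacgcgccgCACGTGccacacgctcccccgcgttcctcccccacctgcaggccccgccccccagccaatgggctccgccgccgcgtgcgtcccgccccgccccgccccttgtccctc
Pgk1, chrX:106186940-106187099, plus strand: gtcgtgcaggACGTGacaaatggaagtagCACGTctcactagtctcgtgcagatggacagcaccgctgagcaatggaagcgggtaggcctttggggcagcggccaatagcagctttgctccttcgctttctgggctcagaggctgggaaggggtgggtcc

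The printed stretches are 160 bases long for Ldha and Pgk1 and 120 for the others, so matches were compared over the full 250 bases of each promoter shown. Among these promoters Ldha had the largest number of matches, 5, Slc16a3, Bnip3 and Pgk1 had 2 each, and Slc2a1 and Egln1 had 1. Each CACGTG counts as 2 matches, 1 per strand. The 2 of Bnip3 are therefore 1 site, and the 5 of Ldha include such pairs, whereas those of Slc16a3 and Pgk1 lie apart. The members without ACGTG in any promoter window included Aldoc, Hk1, Pfkp, Pfkl, Gpi1 and Tpi1 of upper glycolysis. Gapdh, Eno1, Pdk1, Hif3a, Adm, Higd1a and Kdm3a also lacked it, and several of all these are established HIF targets. All of them but Gpi1 and Tpi1 held GCGTG, the other form of the core, in a window. Of the 33 genes with a promoter, 31 held 1 form or the other.

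Most of the variation of the members was between teratomas of 1 group. Of the variance of their log2 levels over the 12 libraries, a median of 30.8% lay between the 4 groups (range 5.20% for Adm to 56.0% for Mxi1), against 41.7% over all 18405 genes tested, while their median SD of 0.293 on the log2 scale was above the 0.228 of all genes. No test was made of these shares. In ET replicate 2, WT replicate 1 and K412R replicate 1, 31, 30 and 30 of the 34 members lay above their median over the libraries, and in ET replicate 1, WT replicate 2 and K412R replicate 2, 1, 5 and 5 did. ET, WT and K412R thus each contained a teratoma with high and a teratoma with low levels of the module. The K238R-labelled libraries were alike, with 18, 20 and 23 members above the median. As a mean log2 difference from each gene's mean, the 34 members stood at -0.31, 0.23 and -0.10 (ET), 0.26, -0.37 and -0.17 (WT), 0.04, 0.09 and 0.12 (K238R-labelled) and 0.27, -0.11 and 0.06 (K412R), so the groups overlapped.

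**Figure D1:**
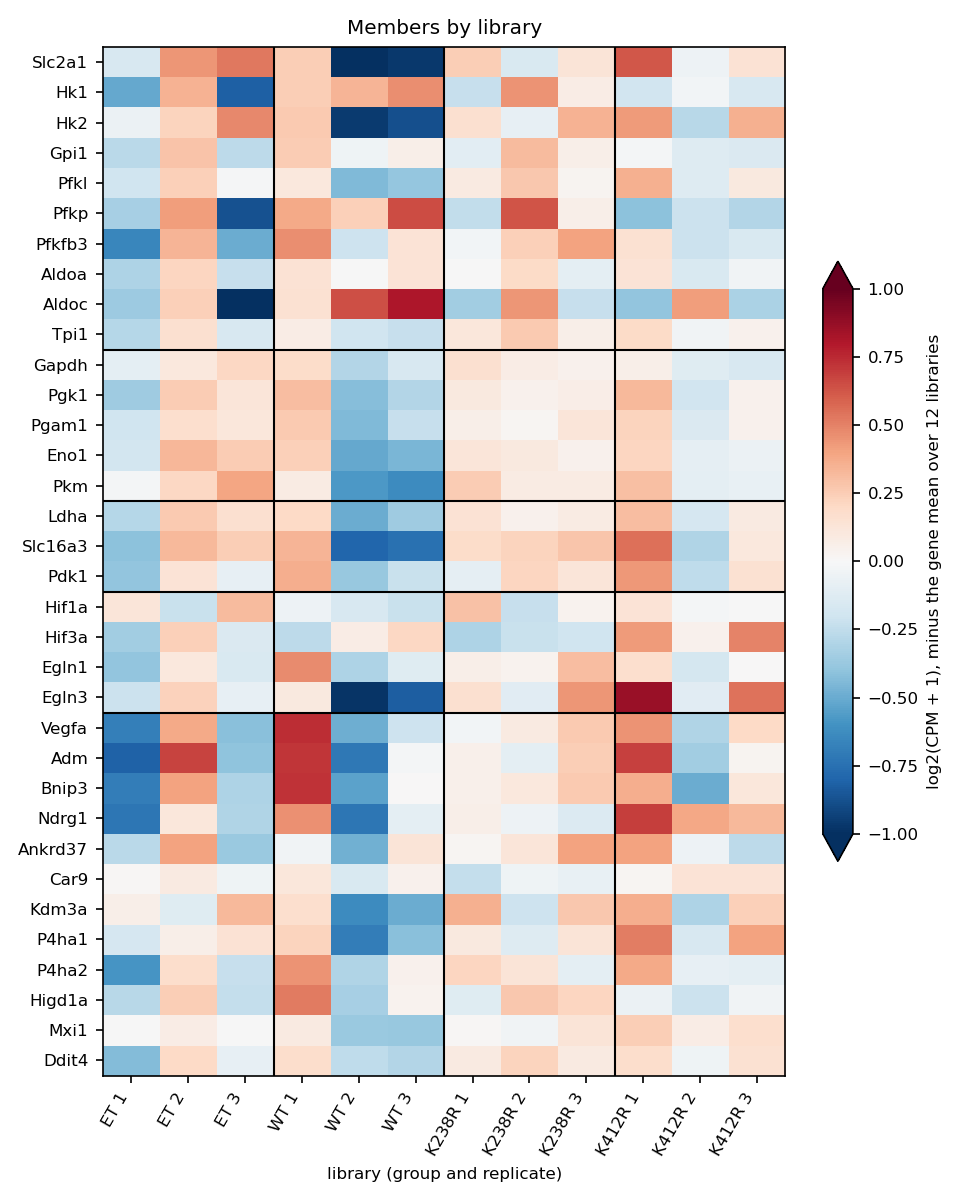
Levels of the 34 members (rows, grouped by class between the horizontal lines) in the 12 libraries (columns, by group and replicate), as log2(CPM + 1, TMM-scaled) minus the mean of the gene over the libraries, red above and blue below that mean, with the colour scale ending at 1 in each direction. ET replicate 2, WT replicate 1 and K412R replicate 1 are red for most members, with 31, 30 and 30 of 34 above the gene's median, and WT replicate 2 is blue, with 5.

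WT was compared with ET to ask how overexpression of Dnmt3L changes the tumors. None of the 34 members passed an adjusted p of 0.05 in the quasi-likelihood test of edgeR, adjusted over all genes tested by the Benjamini-Hochberg method, a threshold that 9 genes (0.0489%) passed. At an unadjusted p under 0.05 there were 4 members (11.8%), against 29.1% of all genes, and DESeq2 called 1 member against 10.4% of all genes. No member was 2-fold different at an unadjusted p under 0.05 (6.08% of all genes), and in no member did the 3 WT libraries lie all above or all below the 3 ET libraries, which was so for 20.7% of all genes. The 4 members were Aldoc and Hk1, with higher means in WT, and Slc2a1 and Pkm, with lower means. The median log2 fold change of the members was -0.04, with 15 above 0 and 19 below, and that of all genes was -0.01. The median of the members was 0.13 without ET replicate 2, 0.05 without WT replicate 2 and -0.22 without WT replicate 1.

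K412R was compared with WT, from which it differs by the lysine it lacks. Its libraries also held less Dnmt3l transcript (38.9, 38.3 and 25.99 CPM, against 165, 203 and 204 in WT). The lysine and the amount of transcript thus cannot be told apart in this comparison. The K238R-labelled libraries were compared with WT by their label alone, since they held no more Dnmt3l transcript than ET. In the K238R-labelled libraries none of the 34 members passed the adjusted threshold (0.174% of all genes), Pkm and Egln3 had an unadjusted p under 0.05 (5.88%, against 17.6% of all genes), and DESeq2 called none (4.27%). The groups did not overlap for 1 member, Pkm, and for 23.8% of all genes. In K412R no member passed (2.02% of all genes). At an unadjusted p under 0.05 there were 5 (14.7%, against 22.8%), of which Slc2a1, Egln3, P4ha1 and Mxi1 had higher and Pfkp lower means than WT, and DESeq2 called Egln3 and Mxi1 (9.1% of all genes). The groups did not overlap for Hif1a, higher in K412R, and Hk1 and Pfkp, lower, 3 members (8.82%) against 32.3% of all genes. The median log2 fold change was 0.17 in the K238R-labelled libraries and 0.19 in K412R, with 24 members above 0 in each, and all genes had medians of 0.00 and 0.01. Both rested on single WT libraries, being 0.39 and 0.41 without WT replicate 1, 0.03 and 0.05 without WT replicate 2 and 0.10 and 0.12 without WT replicate 3, and the latter was 0.09 without K412R replicate 1. Both comparisons and the preceding one share the WT libraries, so their signs are not independent of each other.

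**Figure D2:**
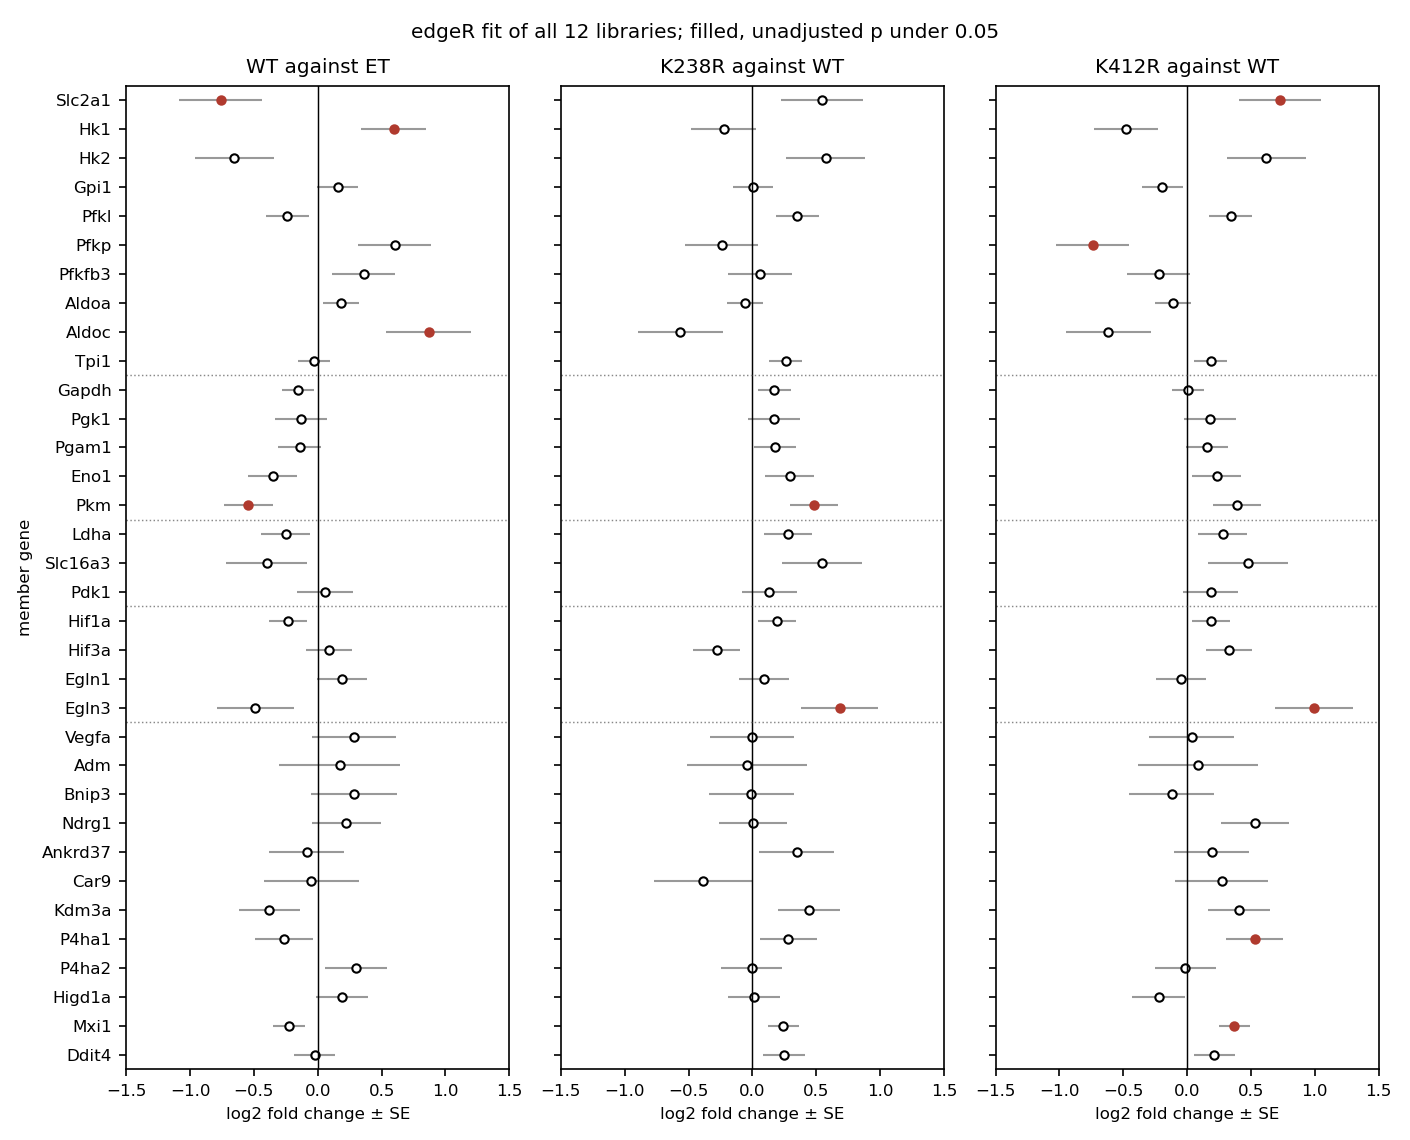
Log2 fold changes (horizontal axis, points, with the standard error as bars) of the 34 members (vertical axis) in WT against ET, the K238R-labelled libraries against WT and K412R against WT, from edgeR's fit of all 12 libraries. Filled points have an unadjusted p under 0.05, 4, 2 and 5 members, and no point passed the adjusted threshold.

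Slc2a1 encodes GLUT1, the carrier through which most cells take up glucose. Its level was 136, 207 and 215 CPM (ET), 182, 72.1 and 73.5 (WT), 182, 135 and 171 (K238R-labelled) and 228, 141 and 174 (K412R). WT replicates 2 and 3 were the lowest of the 12 libraries, while WT replicate 1 lay within the range of ET. The log2 fold change was -0.76 in WT against ET (standard error 0.32, edgeR adjusted p = 0.150), 0.54 in the K238R-labelled libraries against WT (standard error 0.32, edgeR adjusted p = 0.380) and 0.73 in K412R against WT (standard error 0.32, edgeR adjusted p = 0.207). Without WT replicate 1 the difference of WT from ET was -1.31 and that of K412R from WT 1.28, both past the adjusted threshold (edgeR adjusted p = 0.0316 and 0.0225). Over the 12 fits that drop 1 library each, the values ran from -1.31 to -0.54 and from 0.50 to 1.28. Neither difference passed in any other of these fits (highest edgeR adjusted p = 0.438 and 0.538).

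Hexokinase traps glucose in the cell as glucose 6-phosphate, and Hk2 encodes the isoform that is induced by hypoxia and insulin. Hk2 stood at 59.5, 72.2 and 84.6 CPM (ET), 74.4, 30.4 and 31.3 (WT), 69.6, 57.4 and 80.6 (K238R-labelled) and 80.8, 48.6 and 81.8 (K412R). As for Slc2a1, WT replicates 2 and 3 were the lowest libraries and WT replicate 1 was not low. The log2 difference between WT and ET was -0.65 (standard error 0.31, edgeR adjusted p = 0.179), and without WT replicate 1 it was -1.18 (adjusted p = 0.0336 by edgeR). Dropping 1 library at a time gave -1.18 to -0.44 (highest edgeR adjusted p = 0.490).

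Aldoc encodes aldolase C, the isoform of the enzyme that splits fructose 1,6-bisphosphate found mainly in brain, where astrocytes and Purkinje cells make it. It had 79.3, 120.3 and 47.6 CPM (ET), 114, 155 and 170.3 (WT), 80.7, 137 and 88.8 (K238R-labelled) and 74.9, 131 and 84.4 (K412R). Here WT replicates 2 and 3 were the highest libraries, opposite to Slc2a1 and Hk2, and ET replicate 3 was the lowest. On the log2 scale WT differed from ET by 0.87 (standard error 0.33, edgeR adjusted p = 0.131), the K238R-labelled libraries from WT by -0.56 (standard error 0.33, edgeR adjusted p = 0.377) and K412R from WT by -0.62 (standard error 0.33, edgeR adjusted p = 0.287). Without ET replicate 2 the first was 1.25 and passed (edgeR adjusted p = 0.0178). Dropping 1 library at a time gave 0.60 to 1.25 (highest edgeR adjusted p = 0.422).

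Hk1, the hexokinase of brain and red cells, and Pfkp, the platelet type of phosphofructokinase that is also abundant in brain, are described like Aldoc although they were picked after their values were seen. Hk1 was at 115, 209 and 90.4 CPM (ET), 195, 202 and 214 (WT), 141, 221 and 177 (K238R-labelled) and 139, 154 and 151 (K412R). Pfkp was at 279.6, 469.6 and 188 CPM (ET), 459, 404 and 527 (WT), 299, 537 and 374 (K238R-labelled) and 256, 290.4 and 298 (K412R). For both genes ET replicate 3 was the lowest library, and the 3 K412R libraries all lay below the 3 WT libraries. The log2 fold change of Hk1 was 0.59 in WT against ET (standard error 0.25, edgeR adjusted p = 0.151) and -0.48 in K412R against WT (standard error 0.25, edgeR adjusted p = 0.277). That of Pfkp was 0.60 (standard error 0.29, edgeR adjusted p = 0.184) and -0.74 (standard error 0.29, edgeR adjusted p = 0.161), and in a fit of K412R and WT alone both genes passed the threshold (10.7% of all genes did so, edgeR adjusted p = 0.0212 for Hk1 and 0.0152 for Pfkp). Over the fits that drop 1 library each, the difference of WT from ET ran from 0.37 to 1.03 for Hk1 and from 0.35 to 1.02 for Pfkp, the highest values being those without ET replicate 2 (edgeR adjusted p = 0.00526 and 0.0123).

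Markers of neural tissue were high and low in some of the same libraries as Aldoc, Hk1 and Pfkp. The 12 neuron markers summed to 4464, 4548 and 4026 CPM (ET), 4408, 5454 and 5836 (WT), 4567, 5203 and 5560.4 (K238R-labelled) and 3239, 3885 and 3764 (K412R). The 8 astrocyte markers summed to 1413, 1733 and 954 CPM (ET), 1766, 2099 and 2307 (WT), 1334, 1445 and 1302 (K238R-labelled) and 1180.4, 1657 and 1297 (K412R), highest in WT replicate 3 and lowest in ET replicate 3. In bulk tumor RNA more cells of a type and more transcript per cell cannot be told apart, and the part of the neural markers in these 3 genes was not tested.

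The other 5 upper enzymes, named here in the order of the pathway, were steadier. Gpi1 (glucose phosphate isomerase) ran from 300.1 to 453 CPM, Pfkl (the liver phosphofructokinase) from 101 to 174, Pfkfb3 (which makes the activator fructose 2,6-bisphosphate) from 59.1 to 129, Aldoa (the ubiquitous aldolase) from 524 to 752 and Tpi1 (triose phosphate isomerase) from 232 to 338. Their log2 fold changes in WT against ET were between -0.24 for Pfkl and 0.36 for Pfkfb3. None had an unadjusted p under 0.05 in the 6 comparisons.

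**Figure D3:**
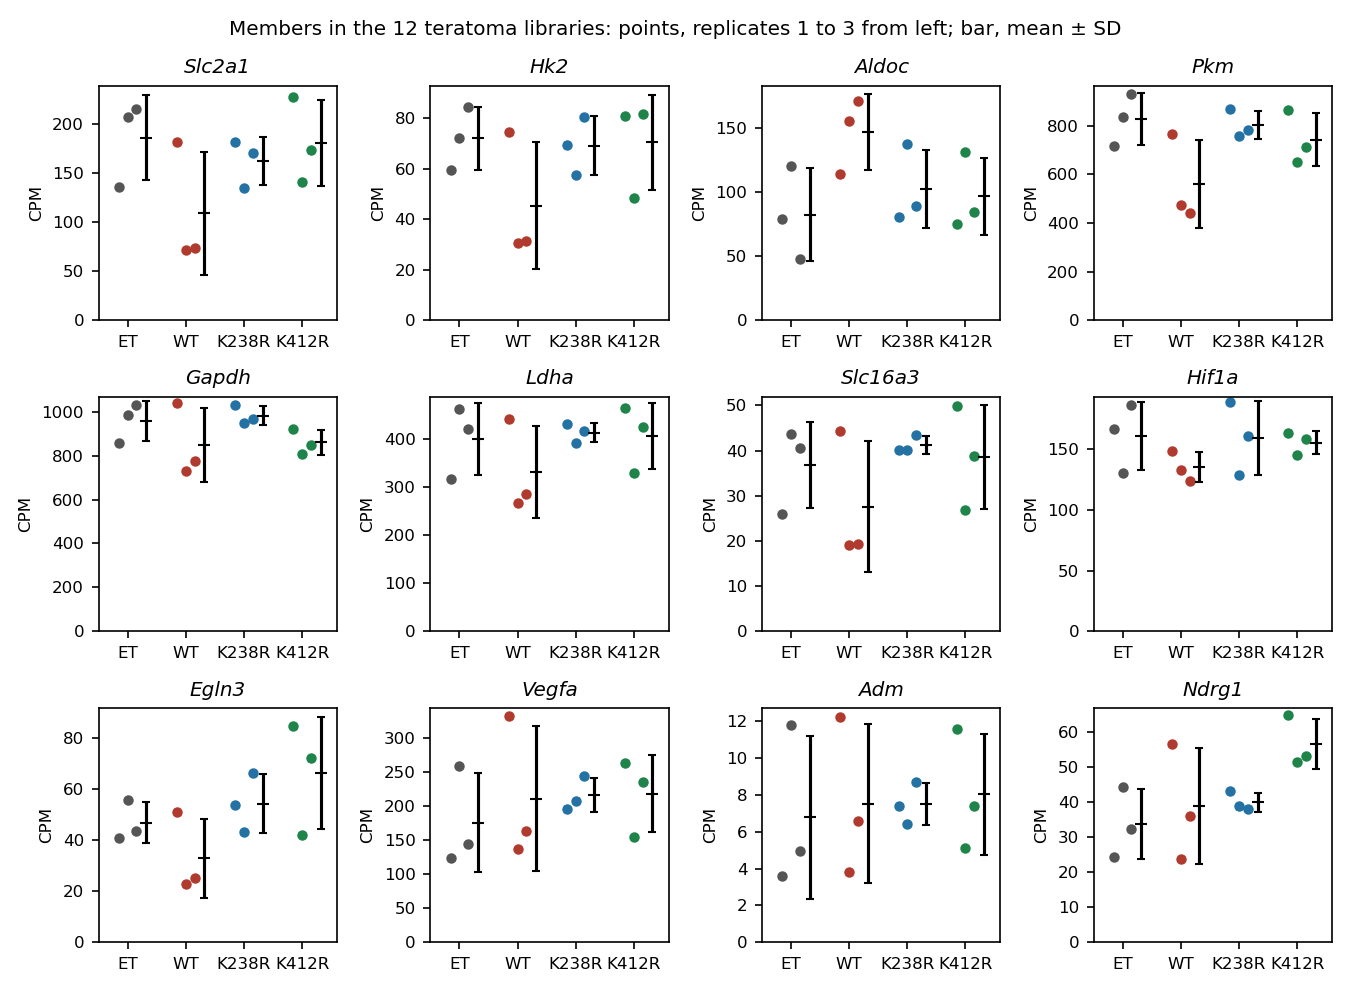
CPM (vertical axis, from 0) of 12 members in the 4 groups (horizontal axis), with a point per library, replicates 1 to 3 from left to right, and a bar at the mean with the SD (n = 3). WT replicates 2 and 3 are below the other libraries for Slc2a1, Hk2, Pkm, Slc16a3 and Egln3 and highest for Aldoc, while for Vegfa and Adm WT replicate 1 is the highest library.

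All 5 genes of lower glycolysis, which yields ATP, NADH and pyruvate, had lower means in WT than in ET, and 1 of the 5 had an unadjusted p under 0.05 against ET. Pkm encodes pyruvate kinase M, the last enzyme of the pathway. It stood at 715, 836 and 931 CPM (ET), 768, 472 and 443 (WT), 869, 756 and 784 (K238R-labelled) and 864, 651 and 712 (K412R). WT replicates 2 and 3 were the lowest libraries. The K238R-labelled libraries all lay above WT after TMM scaling, but in plain CPM their replicate 2 was below WT replicate 1. The log2 fold change was -0.54 in WT against ET (standard error 0.19, edgeR adjusted p = 0.117, and adjusted p = 0.0486 with DESeq2), 0.48 in the K238R-labelled libraries against WT (standard error 0.19, edgeR adjusted p = 0.227) and 0.39 in K412R against WT (standard error 0.19, edgeR adjusted p = 0.236). Without WT replicate 1 the first was -0.81 (edgeR adjusted p = 0.0322). Dropping 1 library at a time gave -0.81 to -0.42 (highest edgeR adjusted p = 0.399).

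Eno1 encodes enolase 1. Its counts were 558, 794 and 734 CPM (ET), 744, 430.3 and 436 (WT), 692, 665 and 664 (K238R-labelled) and 710.0, 569 and 626 (K412R). WT replicates 2 and 3 were again the lowest, with a log2 fold change of -0.35 in WT against ET (standard error 0.19, edgeR adjusted p = 0.231), and of -0.64 without WT replicate 1 (edgeR adjusted p = 0.0420). Dropping 1 library at a time gave -0.64 to -0.22 (highest edgeR adjusted p = 0.532). The near-identical copy Eno1b took 15.3% to 18.5% of the counts of both genes, so the division of reads between them is uncertain, but the sum of both was also lowest in WT replicates 2 and 3 (525 and 535 CPM, against 672 to 941 elsewhere).

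Pgk1, phosphoglycerate kinase 1, makes the first ATP of the pathway. It was at 227, 347 and 309.7 CPM (ET), 361, 211 and 225 (WT), 314, 296 and 312 (K238R-labelled) and 353, 245 and 311 (K412R). Gapdh, the dehydrogenase before it, whose many pseudogenes can take part of its reads, was at 856, 987 and 1029.8 CPM (ET), 1039.6, 728 and 776 (WT), 1031, 949.8 and 966 (K238R-labelled) and 921, 809 and 849 (K412R). The highest Gapdh library held 1.43 times the CPM of the lowest, and for Pgk1 the ratio was 1.71. The log2 fold changes in WT against ET were -0.13 for Pgk1 (standard error 0.20, edgeR adjusted p = 0.685) and -0.15 for Gapdh (standard error 0.13, edgeR adjusted p = 0.423). Pgam1, phosphoglycerate mutase 1, ran from 234 CPM in WT replicate 2 to 392 in WT replicate 1.

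Ldha encodes lactate dehydrogenase A, which regenerates NAD by reducing pyruvate. It was at 318, 463 and 422 CPM (ET), 443, 267 and 286 (WT), 432, 393 and 417 (K238R-labelled) and 465, 330.4 and 426 (K412R). WT replicates 2 and 3 were the lowest, with a log2 difference between WT and ET of -0.25 (standard error 0.19, edgeR adjusted p = 0.379). Slc16a3 encodes MCT4, which exports the lactate. It was at 25.98, 43.8 and 40.6 CPM (ET), 44.4, 19.1 and 19.3 (WT), 40.1, 40.1 and 43.4 (K238R-labelled) and 49.9, 26.97 and 38.9 (K412R). Its lowest libraries were also WT replicates 2 and 3, and the highest library held 2.61 times the CPM of the lowest. The log2 fold changes were -0.40 in WT against ET (standard error 0.31, edgeR adjusted p = 0.397) and 0.55 in the K238R-labelled libraries against WT (standard error 0.31, edgeR adjusted p = 0.368). Without WT replicate 1 the difference of WT from ET was -0.49 for Ldha and -0.89 for Slc16a3, and that of the K238R-labelled libraries from WT was 1.04 for Slc16a3, none past the adjusted threshold of edgeR (adjusted p = 0.0792, 0.0548 and 0.0892).

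Pdk1, the kinase that shuts pyruvate out of the mitochondrion, had 52.8, 76.7 and 63.99 CPM (ET), 90.00, 51.8 and 56.5 (WT), 65.7, 79.8 and 77.6 (K238R-labelled) and 91.4, 55.98 and 80.1 (K412R). Its group means were within the spread of the libraries, with a log2 fold change of 0.06 in WT against ET (standard error 0.22, edgeR adjusted p = 0.878).

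Egln3 encodes PHD3, a HIF prolyl hydroxylase that HIF itself induces, and of all members it had the largest ratio between the highest and the lowest library, 3.69. Its level was 40.9, 55.8 and 43.6 CPM (ET), 50.8, 22.9 and 24.99 (WT), 53.5, 43.1 and 66.1 (K238R-labelled) and 84.6, 41.95 and 71.9 (K412R). K412R replicates 1 and 3 were the highest libraries, WT replicates 2 and 3 the lowest, and K412R replicate 2 lay below WT replicate 1. The log2 fold change was 0.995 in K412R against WT (standard error 0.30, edgeR adjusted p = 0.0956), the lowest adjusted p of any member, and DESeq2 called it (adjusted p = 0.0180). Without WT replicate 1 it was 1.42 (edgeR adjusted p = 0.0234). Dropping 1 library at a time gave 0.76 to 1.42 (highest edgeR adjusted p = 0.335). For Egln3 the value was 0.68 in the K238R-labelled libraries against WT (standard error 0.30, edgeR adjusted p = 0.272) and -0.49 in WT against ET (standard error 0.30, edgeR adjusted p = 0.285). Against ET, K412R differed by 0.51 (standard error 0.30, edgeR adjusted p = 0.691).

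Egln1 encodes PHD2, the main oxygen sensor of most cells. It had 59.1, 83.9 and 68.3 CPM (ET), 109, 60.99 and 67.7 (WT), 82.01, 78.4 and 98.9 (K238R-labelled) and 84.8, 66.1 and 80.9 (K412R). The lowest library was ET replicate 1 and the highest WT replicate 1, with a log2 difference between WT and ET of 0.19 (standard error 0.20, edgeR adjusted p = 0.527).

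Hif1a, the alpha subunit that acts soonest in hypoxia, was at 167, 131 and 186 CPM (ET), 148, 133 and 124 (WT), 189, 128 and 160.4 (K238R-labelled) and 163, 145 and 158 (K412R). After TMM scaling the K412R libraries all lay above the WT libraries, while in plain CPM K412R replicate 2 was below WT replicate 1. K412R differed from WT by 0.19 on the log2 scale (standard error 0.15, edgeR adjusted p = 0.464), and in WT against ET it was -0.23 (standard error 0.15, edgeR adjusted p = 0.302).

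Hif3a encodes another alpha subunit, splice forms of which restrain the others. It had 14.1, 21.6 and 15.96 CPM (ET), 15.01, 18.7 and 20.02 (WT), 14.6, 15.2 and 16.02 (K238R-labelled) and 23.96, 17.98 and 26.9 (K412R). The K412R libraries were all above those labelled K238R, with a log2 fold change of 0.61 (standard error 0.18, edgeR adjusted p = 0.229), and K412R differed from ET by 0.42 (standard error 0.18, edgeR adjusted p = 0.620). The counts do not separate the splice forms.

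Vegfa, the growth factor that draws vessels into hypoxic tissue, stood at 124, 259 and 145 CPM (ET), 333, 138 and 164 (WT), 197, 208 and 244 (K238R-labelled) and 264, 155 and 236 (K412R). WT replicate 1 was the highest of all libraries and ET replicate 1 the lowest, so that the range within WT took in most of that of the other groups. The log2 fold change was 0.29 in WT against ET (standard error 0.33, edgeR adjusted p = 0.574), -0.00 in the K238R-labelled libraries against WT (standard error 0.33, edgeR adjusted p = 0.999) and 0.03 in K412R against WT (standard error 0.33, edgeR adjusted p = 0.958). Over the 12 fits that drop 1 library each, the first lay between -0.17 and 0.67.

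Adm encodes adrenomedullin, a peptide that widens vessels. It was expressed at 3.58, 11.8 and 4.95 CPM (ET), 12.2, 3.79 and 6.56 (WT), 7.39, 6.39 and 8.69 (K238R-labelled) and 11.5, 5.09 and 7.41 (K412R), which are 63 to 217 counts per library. ET replicate 2, WT replicate 1 and K412R replicate 1 were the highest libraries of their groups, and 5.20% of the variance lay between groups, the least of the members. WT differed from ET by a log2 fold change of 0.17 (standard error 0.47, edgeR adjusted p = 0.826), or -0.33 if WT replicate 1 was dropped and 0.84 if ET replicate 2 was.

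Ndrg1, a stress-induced gene often used as a hypoxia marker, was at 24.5, 44.5 and 32.3 CPM (ET), 56.6, 23.8 and 36.2 (WT), 43.2, 38.9 and 38.1 (K238R-labelled) and 64.8, 51.7 and 53.3 (K412R). The K412R libraries lay above all ET libraries and all K238R-labelled libraries. The log2 fold change was 0.76 in K412R against ET (standard error 0.27, edgeR adjusted p = 0.550) and 0.53 in K412R against the K238R-labelled libraries (standard error 0.27, edgeR adjusted p = 0.485). It is the gene of the module that set K412R most apart from the control, and it did not pass the adjusted threshold.

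Of the other hypoxia-induced genes, Mxi1 and P4ha1 had an unadjusted p under 0.05 in K412R against WT. Mxi1, a MAX-binding antagonist of MYC, had 105, 73.5 and 71.3 CPM in WT and 113, 98.8 and 114 in K412R (log2 fold change 0.37, standard error 0.12, edgeR adjusted p = 0.114, and adjusted p = 0.0462 with DESeq2), and 97.7, 103 and 95.3 in ET. P4ha1, a collagen prolyl hydroxylase subunit, had 94.3, 48.3 and 56.9 CPM in WT and 112, 68.9 and 110.4 in K412R (log2 fold change 0.53, standard error 0.22, edgeR adjusted p = 0.191). Without WT replicate 1 the differences were 0.54 and 0.84, both past the threshold (edgeR adjusted p = 0.0180 and 0.0385). Dropping 1 library at a time gave 0.29 to 0.54 for Mxi1 and 0.35 to 0.84 for P4ha1 (highest edgeR adjusted p = 0.384 and 0.486). Both genes were lowest in WT replicates 2 and 3, as was Kdm3a, a histone H3K9 demethylase that needs oxygen, with 69.7, 38.7 and 41.3 CPM in WT and 64.6, 56.7 and 76.00 in ET. These 3 genes were picked after their values were seen.

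Bnip3, a mitophagy receptor, P4ha2, the second collagen hydroxylase subunit, and Higd1a, a small protein of the respiratory chain, had their highest level in WT replicate 1, like Vegfa and Adm. Bnip3 stood at 43.1, 93.00 and 55.1 CPM in ET and 116, 46.8 and 66.5 in WT, and its log2 fold change was 0.28 (standard error 0.33, edgeR adjusted p = 0.579), or -0.12 if WT replicate 1 was dropped and 0.66 if ET replicate 2 was. P4ha2 ran from 10.2 to 22.0 CPM over the 12 libraries and Higd1a from 48.2 to 90.2. Ddit4, an inhibitor of mTORC1, ran from 43.8 to 68.5 CPM and Ankrd37, an ankyrin repeat protein, from 3.62 to 7.87. Car9, the carbonic anhydrase that acidifies hypoxic tumors, was near the lower limit of detection, at 0.270 to 0.674 CPM or 5 to 12 counts per library, and no difference was detectable at this depth. After scaling, Car9 lay lower in the K238R-labelled libraries than in ET and in K412R without overlap, on those few counts. Against ET this rests on the scaling alone, since ET replicate 3 and replicates 2 and 3 of the K238R-labelled libraries each held 8 counts.

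The K238R-labelled libraries and K412R were also compared with ET and with each other. In the K238R-labelled libraries against ET no member passed the adjusted threshold and none had an unadjusted p under 0.05 (0% and 5.58% of all genes), and DESeq2 called none (0.0761%). Car9 was the 1 member (2.94%) without overlap, and only after scaling of tied counts, against 9.35% of all genes. In K412R against ET no member passed (0% of all genes), Hif3a and Ndrg1 had an unadjusted p under 0.05 (5.88%, against 7.86%), DESeq2 called none (0.484%), and Ndrg1 alone did not overlap (2.94%, against 11.3%). In K412R against the K238R-labelled libraries no member passed (0.0217% of all genes), Hif3a had an unadjusted p under 0.05 (2.94%, against 11.9%), DESeq2 called none (2.09%), and Hif3a, Ndrg1 and Car9 did not overlap (8.82%, against 19.6%). The median log2 fold changes of the members were 0.14, 0.11 and -0.03, and dropping 1 library at a time gave 0.03 to 0.33, -0.03 to 0.30 and -0.14 to 0.09.

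How many members differed depended on which WT and ET libraries were fitted. Without WT replicate 1, 15 members had an unadjusted p under 0.05 in WT against ET (33.9% of all genes), 17 in the K238R-labelled libraries against WT (23.2%) and 16 in K412R against WT (27.8%). Without WT replicate 2 the numbers were 0, 0 and 2 (17.3%, 11.9% and 15.5% of all genes), and without WT replicate 3 they were 0, 0 and 1 (13.7%, 10.2% and 13% of all genes). At the adjusted threshold without WT replicate 1, Slc2a1, Hk2, Eno1, Pkm and Mxi1 were lower in WT than in ET (14.7% of the members, against 4.28% of all genes in that direction). Slc2a1, Hk2, Pkm, Egln3, P4ha1 and Mxi1 were higher in K412R than in WT (17.6%, against 2.42%). Without ET replicate 2 the 6 members called in WT against ET were different ones and all higher in WT, namely Hk1, Gpi1, Pfkp, Pfkfb3, Aldoa and Aldoc of upper glycolysis (17.6%, against 16.2% of all genes in that direction).

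With both ET replicate 2 and WT replicate 1 left out, a choice made after the data were seen, 13 members passed in WT against ET (38.2%, against 37.5% of all genes). Hk1, Pfkp, Pfkfb3, Aldoa and Aldoc were higher, and Slc2a1, Hk2, Eno1, Pkm, Slc16a3, Egln3, Kdm3a and Mxi1 lower in WT. In the K238R-labelled libraries against WT 11 members passed (32.4%, against 11.3%), all higher than in WT. In K412R against WT 14 passed (41.2%, against 18.2%), 12 higher and Hk1 and Pfkp lower, and Ndrg1 passed in K412R against ET (2.94%, against 1.98%). These fits leave 2 libraries in WT and in ET, and the libraries were left out because their whole profiles, members included, stood apart. Replicate 3 of the K238R-labelled libraries, which lay farther from its own group than either, was kept.

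**Figure D4:**
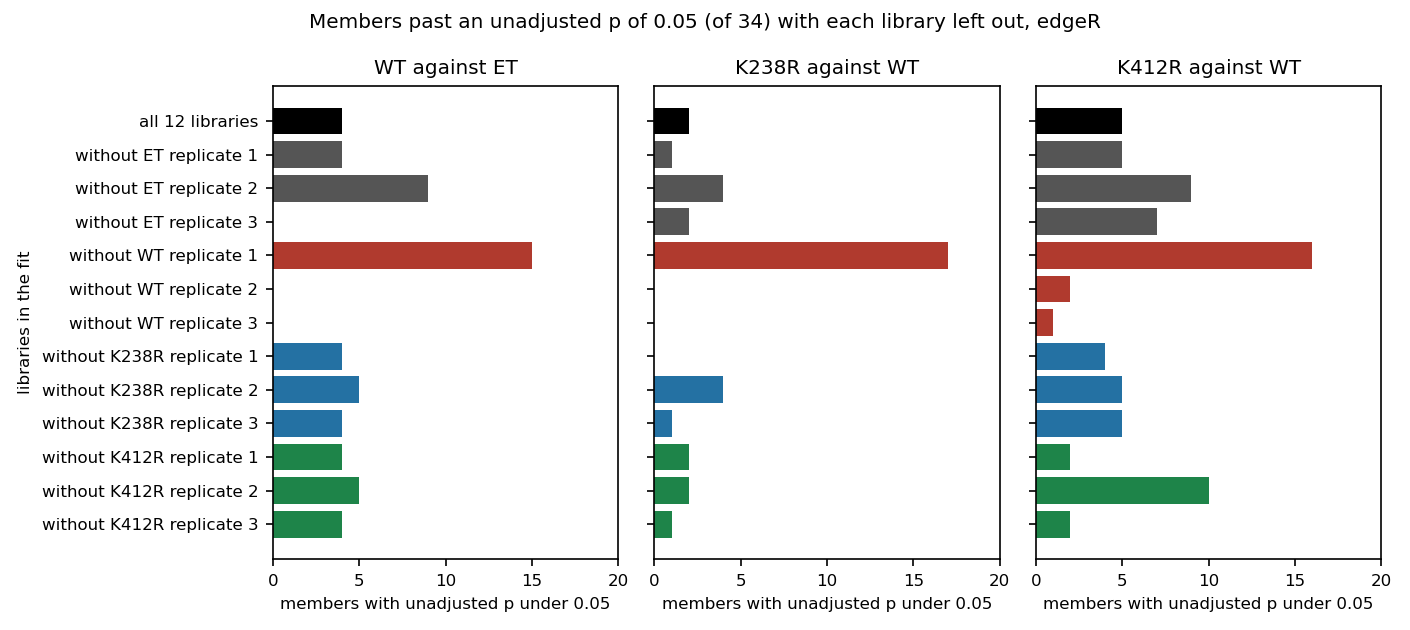
Number of the 34 members with an unadjusted p under 0.05 in edgeR's fit (horizontal axis) with all 12 libraries (top bar) and with each library left out in turn (other bars), in the 3 comparisons with WT. The bars without WT replicate 1 reach 15, 17 and 16 members, and those without WT replicate 2 reach 0, 0 and 2.

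Other genes of the same pathways were read from lists of glycolytic, HIF and hypoxia genes outside the 34. Of 18 further glycolysis genes tested, none passed the adjusted threshold of edgeR in WT against ET. An unadjusted p under 0.05 was found for 7 with higher and 2 with lower means, against 14% and 15.1% of all genes. DESeq2 called Eno3 (higher) and Slc16a1 (lower), a lactate carrier named after its value was seen, against 4.86% and 5.58% of all genes. By sign alone, 12 had a higher and 6 a lower mean, and the median log2 fold change was 0.27. Pgam2 and Eno3, the muscle forms of phosphoglycerate mutase and enolase, had the largest values. Pgam2 was at 7.05, 4.07 and 2.95 CPM in ET and 4.33, 39.3 and 28.4 in WT, with a log2 fold change of 2.40 (standard error 0.89, adjusted p = 0.125 by edgeR). Eno3 was at 22.5, 24.2 and 19.6 CPM in ET and 22.8, 98.7 and 64.01 in WT (1.52, standard error 0.47, adjusted p = 0.111 by edgeR and 0.0440 by DESeq2). Both were high in WT replicates 2 and 3, where the 13 skeletal muscle markers summed to 3938 and 2936 CPM, against 485 in WT replicate 1 and 626, 628 and 300.3 in ET, and the part of muscle tissue in them was not tested.

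The 13 other components of the HIF pathway had a median log2 fold change of -0.07 in WT against ET, 0.08 in the K238R-labelled libraries against WT and 0.07 in K412R against WT. Eloc, the elongin C subunit of the VHL ubiquitin ligase, passed in K412R against WT, where it was lower (83.3, 72.9 and 86.4 CPM in WT and 57.7, 54.5 and 66.5 in K412R, log2 fold change -0.46, standard error 0.09, adjusted p = 0.0281 by edgeR). None of the others passed with edgeR in these 3 comparisons. DESeq2 called Eloc and Arnt2 higher and Ep300 lower in WT than in ET, and none in the K238R-labelled libraries against WT. In K412R it called Arnt and Ep300 higher and Eloc and Arnt2 lower than in WT. Of all genes DESeq2 called 10.4% in WT against ET, 4.27% in the K238R-labelled libraries against WT and 9.1% in K412R against WT. Arnt and Arnt2 are partners of the alpha subunits and Ep300 is a coactivator. Of 26 other hypoxia-induced genes none passed with edgeR either, and the medians were -0.05, 0.06 and 0.13. At an unadjusted p under 0.05, 3 were higher and 2 lower in WT against ET, 2 and 2 in the K238R-labelled libraries against WT, and 5 and 1 in K412R against WT. Of all genes, 14% were higher and 15.1% lower in the first comparison, 7.93% and 9.64% in the second, and 10.2% and 12.5% in the third. Of these 26, DESeq2 called Cxcr4 lower in WT than in ET, and Cxcr4 higher and Angptl4 and Lox lower in the K238R-labelled libraries than in WT. In K412R it called Bhlhe40 and Plod1 higher and Ppfia4 lower than in WT. The shares of all genes that DESeq2 called, given above, apply here too. Genes that only DESeq2 called, where named here and in the next paragraphs, were picked because it called them, after their values were seen. Not all of its calls are named. As a mean log2 difference from each gene's mean, these 26 genes stood at -0.18, 0.22 and -0.14 (ET), 0.30, -0.23 and -0.15 (WT), 0.02, -0.10 and 0.02 (K238R-labelled) and 0.28, -0.12 and 0.07 (K412R). ET replicate 2, WT replicate 1 and K412R replicate 1 were the highest libraries of their groups, as for the 34 members.

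The pathways that burn pyruvate in the mitochondrion had small differences. The 27 genes of pyruvate entry and the TCA cycle had median log2 fold changes of 0.08, -0.13 and -0.18 in WT against ET, in the K238R-labelled libraries against WT and in K412R against WT, and the 26 nuclear genes of the respiratory chain 0.05, -0.11 and -0.13. With edgeR none passed except Ndufs1, a core subunit of complex I, in K412R against WT, where it was lower (90.96, 105 and 99.7 CPM in WT and 76.2, 67.7 and 75.3 in K412R, log2 fold change -0.45, standard error 0.09, adjusted p = 0.0283 by edgeR). DESeq2 called Pdk4 and Ndufs1 higher and Idh3g lower in WT than in ET, and none in the K238R-labelled libraries against WT. Its calls in K412R against WT included Idh3a, Sdhc, Fh1 and Ndufs1, all lower in K412R. Of all genes DESeq2 called 10.4%, 4.27% and 9.1% in these 3 comparisons. At an unadjusted p under 0.05, 8 TCA cycle genes and 7 respiratory chain genes were lower in K412R than in WT, and 1 and 0 were higher. Of all genes, 12.5% were lower and 10.2% higher by this rule.

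Vegfa and Ddit4 are also induced by the integrated stress response, in which the factor ATF4 answers a shortage of amino acids or unfolded proteins. As a mean log2 difference from each gene's mean, 14 genes of that response stood at 0.88 in WT replicate 1 and between -0.29 and 0.13 in the other 11 libraries. Slc7a11, its cystine carrier, passed in K412R against WT, where it was lower (77.2, 79.3 and 58.5 CPM in WT and 21.9, 27.1 and 27.8 in K412R, log2 fold change -1.50, standard error 0.29, adjusted p = 0.0296 by edgeR). Slc7a11 was high in all 3 WT libraries, whereas the list stood at -0.06 and 0.13 in WT replicates 2 and 3. The median log2 fold change of the 14 genes in K412R against WT was -0.55, with 12 lower and 2 higher. The part of this response in the high Vegfa of WT replicate 1 was not tested.

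Vessels and blood bring oxygen to a tumor, and markers of both were measured. The 12 endothelial markers stood at -0.32, 0.40 and -0.45 (ET), 0.21, 0.39 and 0.38 (WT), -0.36, -0.08 and -0.17 (K238R-labelled) and 0.02, -0.04 and -0.01 (K412R), as a mean log2 difference from each gene's mean. They were above their mean in all 3 WT libraries, in ET replicate 2 and, by 0.02, in K412R replicate 1. The hypoxia-induced members, on the same scale, were at 0.36 in WT replicate 1, -0.47 in WT replicate 2 and 0.22 in ET replicate 2. The 6 erythroid markers tested were at -0.47, 0.17 and -0.19 (ET), 0.64, 0.46 and 1.08 (WT), 0.19, 0.27 and -1.01 (K238R-labelled) and 0.17, -0.12 and -1.19 (K412R). In WT against ET the median log2 fold change was 0.36 for the endothelial and 1.02 for the erythroid markers, and edgeR called none of either. Those with an unadjusted p under 0.05 were 4 of the 12 endothelial and 3 of the 6 erythroid markers, all higher in WT, against 14% of all genes in that direction. DESeq2 called Kdr, a receptor of Vegfa, higher (4.86% of all genes in that direction). The part of vessels and blood in the levels of the members was not tested.

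Proliferating and undifferentiated cells are strongly glycolytic, and their genes were lowest where Slc2a1, Hk2 and Pkm were lowest. The 14 mitosis genes stood at 0.43, -0.15 and 0.99 (ET), -0.07, -0.68 and -0.81 (WT), 0.44, -0.37 and -0.03 (K238R-labelled) and 0.16, 0.01 and 0.06 (K412R) on the same scale. The 10 pluripotency genes stood at 0.38, 0.22 and 1.29 (ET), 0.33, -1.32 and -1.61 (WT), 0.40, 0.20 and -0.30 (K238R-labelled) and 0.16, 0.32 and -0.07 (K412R). Both lists were lowest in WT replicates 2 and 3 and highest in ET replicate 3, in which Hk2, Pkm and Gapdh were also at or near their highest. Aldoc, Hk1 and Pfkp, by contrast, were at their lowest in ET replicate 3. In ET replicate 1 the mitosis and pluripotency genes were above their means (0.43 and 0.38). The 34 members and the lower glycolysis genes were below theirs in that library (-0.31 and -0.17). For WT relative to ET, the mitosis list had a median log2 fold change of -1.04 and the pluripotency list one of -1.88. No gene of either list passed the adjusted threshold with edgeR. All 14 mitosis genes nevertheless passed with DESeq2 and had an unadjusted p under 0.05, all lower in WT. By these rules 5.58% and 15.1% of all genes were lower in WT. Of the 10 pluripotency genes, DESeq2 called 1, Nanog, and 6 had an unadjusted p under 0.05, all lower in WT. The part of the makeup of the tumors in the levels of the glycolytic genes was not tested.

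**Figure D5:**
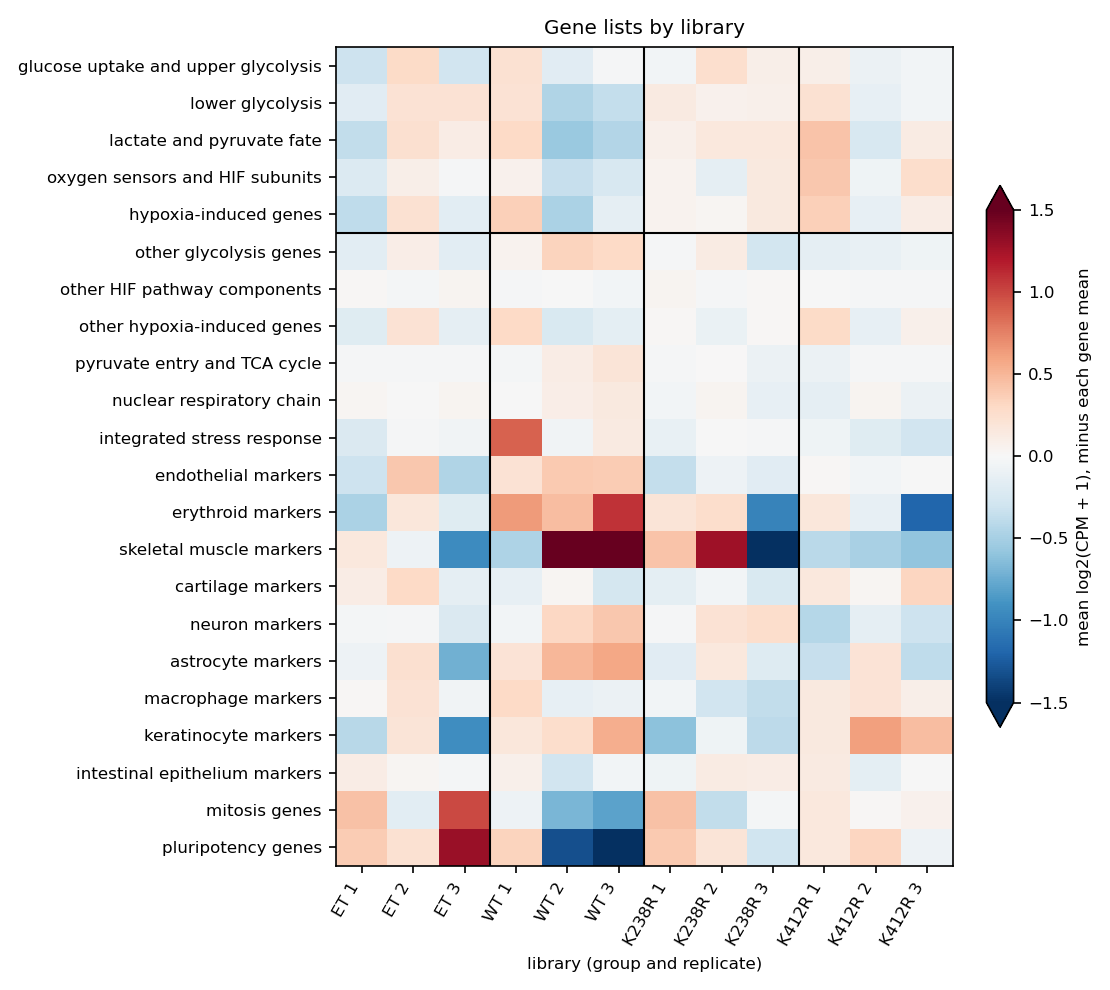
Mean log2(CPM + 1, TMM-scaled) difference from each gene's mean for the 5 classes of members (top rows, above the line) and 17 other gene lists (lower rows) in the 12 libraries (columns), with the colour scale ending at 1.5 in each direction. WT replicates 2 and 3 are blue for mitosis, pluripotency and lower glycolysis genes and dark red for skeletal muscle, while WT replicate 1 is red for the integrated stress response and the hypoxia-induced members.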

How the data were processed

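RNA of 12 teratomas, 3 per group, was made into libraries with a CORALL kit. The authors deposited an estimated count per gene and library, not normalized, and all values were whole numbers. The submitters' processing notes name fastp, STAR, Salmon and GATK and the GRCm39 build. The study lists its software versions in a source data sheet that was not used here. The gene annotation, strand setting and handling of molecular identifiers are not given in the sources used here, so the counts of genes with near-identical copies or antisense partners are uncertain.

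The counts were analysed in R 4.3.3 with edgeR 4.0.16 (TMM scaling, filterByExpr with a minimum count of 10, quasi-likelihood F test, 1 mean per group, Benjamini-Hochberg adjustment over 18405 genes, threshold 0.05), checked on simulated data. The paper's methods name DESeq2, which was run as an alternative (version 1.42.0). CPM is the count over the library total. Standard errors come from the F statistic.

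The members and all gene lists were chosen with earlier results of these data known. Values in every library are given for members past the adjusted threshold, the 3 of each class with the largest SD of log2 CPM, and Hif1a, Slc2a1, Ldha, Gapdh and Vegfa. Of other lists, a gene was named if past the threshold or among the 2 with the largest log2 fold change in WT against ET. Exceptions are said in the text. Lists for the integrated stress response and for neural, muscle, vessel, blood, cartilage, intestinal, keratinocyte, macrophage, mitosis and pluripotency genes were summed per library. Promoters are RefSeq sequences of GRCm38.p6, matched by symbol. No coordinates of the 2 builds were combined, and Ndrg1 was not matched. The sample labels and the paper differ in the LIF concentration of the ES cell medium.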

Additional observations from a re-analysis of the deposited data

How the results depend on the processing

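At the adjusted threshold, where all 12 libraries gave 0 members in each of the 6 comparisons, DESeq2 gave 1 in WT against ET (Pkm) and 2 in K412R against WT (Egln3 and Mxi1), and a fit of 2 groups alone gave 2 in K412R against WT (Hk1 and Pfkp, 5.88% of the members, against 10.7% of all genes). Leaving out each library in turn gave 0 to 6 members in WT against ET, 0 to 6 in K412R against WT and 0 in the other 4 comparisons. Counts above 0 came without ET replicate 2 (6) or WT replicate 1 (5) in the former and without WT replicate 1 (6) in the latter. Without both libraries, an alternative chosen after seeing the data, 13, 11 and 14 members passed in the 3 comparisons with WT, 1 in K412R against ET and 0 in the other 2. DESeq2's size factors in edgeR, scaling to the library total and no filter on low counts left all 6 counts at 0. The cause of these changes was not tested.

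The replicate numbers do not pair the teratomas by any label. Deviations from the group mean of libraries with the same number had correlations of -0.37 to 0.53 over 18 pairs, and other pairs -0.57 to 0.51 over 36 pairs. With a replicate block, 1 member (Aldoc, 2.94%, against 4.98% of all genes) passed in WT against ET and 0 in the other 5 comparisons.

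With 3 libraries per group, the standard errors of the members were 0.12 to 0.47 on the log2 scale, and differences of about 3 standard errors, as for Egln3 and Mxi1 in K412R against WT, did not pass the adjusted threshold of edgeR. Of the members, Car9 had the lowest counts, 5 to 12 per library.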

Other observations

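The 9 keratinocyte markers tested had mean log2 differences from each gene's mean of -0.42, 0.20 and -0.94 (ET), 0.17, 0.27 and 0.55 (WT), -0.61, -0.06 and -0.39 (K238R-labelled) and 0.15, 0.62 and 0.47 (K412R). The 10 macrophage markers stood between -0.37 in replicate 3 of the K238R-labelled libraries and 0.30 in WT replicate 1, and the 6 intestinal markers tested between -0.29 in WT replicate 2 and 0.13. Among the 10 cartilage markers tested Cnmd, which encodes chondromodulin, a cartilage protein that inhibits vessel growth, passed the adjusted threshold in all 3 comparisons with WT. It stood at 3.01, 3.13 and 2.502 CPM (ET), 0.675, 0.892 and 0.513 (WT), 2.97, 3.39 and 2.61 (K238R-labelled) and 3.68, 3.11 and 4.15 (K412R), so the WT libraries lay below all others. Its WT levels were near the lower limit of detection. The 10 markers together had median log2 fold changes of -0.06 in WT against ET, -0.16 in the K238R-labelled libraries against WT and 0.32 in K412R against WT. By sign, 4, 3 and 6 of the 10 were above 0, so the list did not follow Cnmd.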
